A study of Homo sapiens with 4 samples.

Results

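The genes examined here were 9 genes of the neuroendocrine lineage, out of 60880 genes in the count table: the markers INSM1, CHGA, CHGB, SCG2, SCG3, SYP and ENO2, the repressor REST that opposes them, and SRRM4, a splicing factor that acts on REST. They were taken from a list of neuroendocrine prostate cancer markers, and all 9 were found in the table by their Ensembl gene IDs. Poly(A)-selected RNA of prostate cancer cell lines was sequenced in 4 libraries. The 2 LNCaP95 libraries (replicates 1 and 2) came from the parental line, an androgen-independent derivative of LNCaP cells with an intact UGT2B17 gene. The 2 LN95(KO) libraries (replicates 3 and 4) came from UGT2B17-knockout cells, in which this gene for an androgen-glucuronidating enzyme had been disrupted. Both lines grew in RPMI medium with charcoal-stripped serum, which is low in steroids, and received no treatment. The labels give LN95 as the line of all 4 samples while the design text calls the knockout line LNCaP, and the number of knockout clones is not given in the sources used here. Nothing says that the libraries of a line came from separate cultures, so the p-values measure only the spread between these libraries.

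Neuroendocrine cells of the prostate are sparse epithelial cells that store peptides in dense-core granules, and prostate tumours can take on their gene program, often with loss of luminal markers and androgen receptor activity. REST binds a bipartite DNA element, RE1, in or near many neuronal and granule genes and recruits corepressors that keep those genes silent in other cells. SRRM4 promotes inclusion of a neural exon in REST transcripts, which yields a truncated protein with little repressor activity.

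RE1-like sites near these genes are shown first, because they show which of the 9 genes have a close letter match to RE1 near their start. Elements further away or with another spacing would be missed. The half-sites searched were TTCAGCACC and GGACAGCGC, 2 bases apart, on both strands and within 5000 bases on either side of the annotated start of each gene, and up to 3 mismatches over the 18 positions were allowed. A site was found for 4 of the 9 genes (44.4%), compared with 505 of 19959 protein-coding genes (2.53%). In the sequences (GRCh37, the build of the counts), 5 bases stand on either side of each site, capitals mark bases equal to the half-sites, and lower case marks the gap, the flanks and the mismatches:
CHGA: gagttTTCAGCACCgcGGACAGCGCctccg
CHGB: ggccggTCAGCACCgcGGACAGCGCcagcc
SRRM4: cacgtTTCAGCACtttGGACAGCGCcccgg
SYP: cgcgcTcCAGCACCgtGGACAGaGCccgcc

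The CHGA site, at chr14:93389868-93389887 on the plus strand, had no mismatch and lay in an intron 383 bases downstream of the gene start. The CHGB site, at chr20:5892350-5892369 on the plus strand, lay in an intron 204 bases downstream and had 1 mismatch, T1G, counted from the first base of the first half-site, with the half-site base before the position. In SRRM4 the site was at chr12:119419638-119419657 on the plus strand, in an exon 302 bases downstream, and had the mismatch C9T. The SYP site, at chrX:49056582-49056601, was on the minus strand like the gene, in an intron 85 bases downstream, and carried T2C and C18A. All 4 sites thus lay downstream of the start and in the orientation of the gene. No match was present in the windows of INSM1, SCG2, SCG3, ENO2 and REST, which says only that these letters are not there. A letter match does not show that REST bound any of these sites in these cells.

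**Figure D1:**
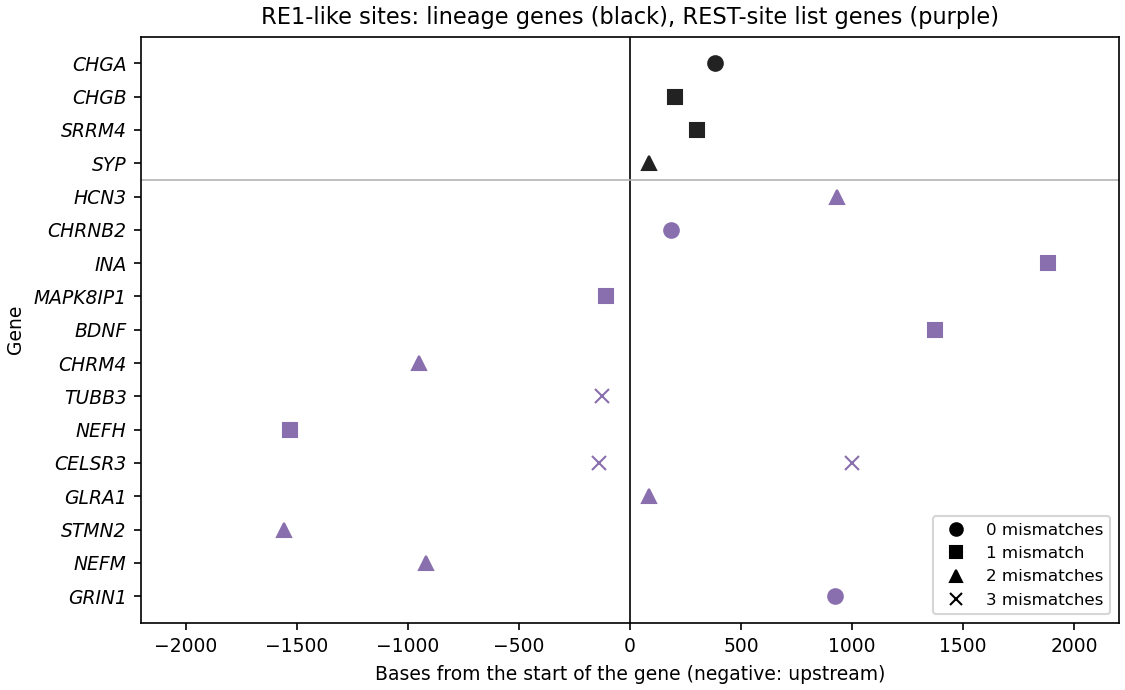
RE1-like sites plotted by their distance in bases from the start of each gene (horizontal axis, negative upstream), for the neuroendocrine lineage genes (black) and for a list of neuronal genes known for REST sites (purple), with marker shape giving the number of mismatches. The sites of CHGA, CHGB, SRRM4 and SYP lay between 85 and 383 bases downstream, whereas those of the neuronal list fell on both sides of the start.

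LNCaP95 and LN95(KO) cells expressed REST, ENO2 and little SYP, and had few SCG2 reads. They had almost none of the CHGA, CHGB, SCG3, INSM1 and SRRM4 transcripts that mark neuroendocrine cells. ENO2 was 3.80-fold lower in LN95(KO), REST was 1.45-fold lower, and SYP did not differ detectably. Of the 9 genes, 2 had no read in any library, 5 had under 10 reads in all 4 libraries together, and 3 passed the filter on low counts and were tested. With edgeR's quasi-likelihood test, and calls made at a Benjamini-Hochberg adjusted p below 0.05 with a fold change above 2, 1 of these 3 was called, in the lower direction. The background was 18.0% of 15626 genes tested called in either direction, 8.86% higher and 9.13% lower in LN95(KO), so the knockout line differed from its parent across the transcriptome. As the samples are bulk RNA, fewer cells expressing a gene and less RNA per cell cannot be told apart.

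**Figure D2:**
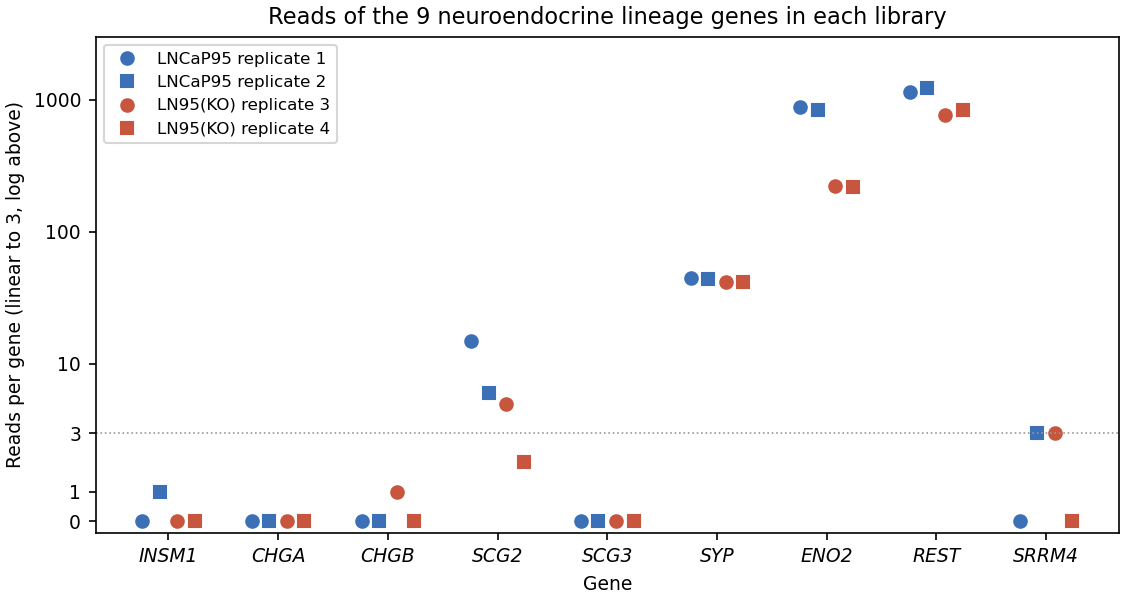
Raw reads assigned to each of the 9 genes in each library (vertical axis, linear up to 3 reads and logarithmic above, dotted line at 3 reads). INSM1, CHGA, CHGB, SCG3 and SRRM4 stayed between 0 and 3 reads in all 4 libraries, SYP stayed between 42 and 45, and ENO2 fell from 875 and 835 reads to 223 and 217.

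Library size, alignment and the label check bear on all of these values. Between 17330338 and 18813193 reads were assigned to genes per library, so 3 reads corresponded to 0.159 to 0.173 CPM (reads per 1e+06 gene reads), and a gene with 0 reads could lie anywhere up to about that level. That limit covers counting error only. UGT2B17 itself had 2788 and 2748 reads in LNCaP95 and 21 and 20 in LN95(KO), in accordance with the labels. All 14 luminal prostate markers found in the table were expressed, with a summed level of 5738 to 5765 CPM in LNCaP95 and 5219 to 5496 CPM in LN95(KO), and 8 of them were called, 6 higher and 2 lower. Leukocyte markers summed to at most 0.339 CPM in any library, with CD3E at 0. CD68 was also listed at 0, but 85.6% of its exon bases are shared with another annotated gene, so its count says little. The endothelial list summed to 0.433 to 0.491 CPM in LNCaP95 and 2.77 to 3.18 CPM in LN95(KO), where the gene that rose was VWF, from 8 and 8 reads to 49 and 58, while CDH5 was at 0. The basal list summed to 21.7 to 24.2 and 30.1 to 30.7 CPM, with KRT14 called higher (1 and 2 reads against 17 and 20). Most of that sum was DST (21.6 and 24.0 against 28.9 and 29.2 CPM), and KRT5, KRT15, KRT6A and TP63 had at most 5 reads in any library. The fibroblast and muscle list summed to 33.9 to 34.8 and 36.5 to 40.0 CPM, with LUM called lower (24 and 19 reads against 0 and 0) and DCN at 0. Most of this sum was COL1A1 (28.4 and 28.4 against 34.2 and 31.8 CPM), which was not called. Marker genes are named here after their values were seen. A zero in the table does not always mean no transcript, since EHMT2, a histone methyltransferase gene used by most cells, was listed at 0 in all 4 libraries.

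INSM1, a zinc-finger transcription factor of neuroendocrine and neuronal progenitors, is a single-exon gene (chr20:20348748-20351593, plus strand). It had 0 reads and 1 read in LNCaP95 and 0 and 0 reads in LN95(KO). One line could therefore not be distinguished from the other at this depth, and the gene was not tested.

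The granins are the acidic cargo proteins of dense-core granules. CHGA, encoding chromogranin A (chr14:93389495-93401630, plus strand, 9 exon blocks), the serum and tissue marker most used for neuroendocrine tumours, had 0 reads in each of the 4 libraries. CHGB, encoding chromogranin B (chr20:5892156-5905999, plus strand), had 0 and 0 reads in LNCaP95 and 1 and 0 reads in LN95(KO). SCG3, encoding secretogranin III, which helps to bring chromogranin A to granule membranes (chr15:51973689-52013223, plus strand), had 0 reads in each library. These 3 granins were thus at or near zero in both lines, and no difference was detectable at this depth. CHGA is also the gene whose site, printed above, equals both RE1 half-sites.

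SCG2, encoding secretogranin II, the precursor of the peptide secretoneurin (chr2:224461658-224467079, minus strand, 2 exon blocks), was the only granin with more than a few reads. It had 15 and 6 reads in LNCaP95 and 5 and 2 in LN95(KO), so the libraries did not overlap, by a margin of 1 read. Pooled over the libraries of a line, 21 reads stood against 7, and the ratio of LN95(KO) to LNCaP95 after scaling was 0.341 (exact binomial 95% interval 0.122 to 0.833, counting error only). The gene did not pass the filter and was not tested in the main analysis. Fitted without that filter in edgeR, its log2 fold change was -1.52 with an adjusted p of 0.0508, and DESeq2 gave -1.55 with an adjusted p of 0.342. Without LNCaP95 replicate 2, replicate 1 was the only parental library, and the gene passed the filter with a log2 fold change of -2.02. Without LN95(KO) replicate 3 or 4 it passed with -2.31 and -0.99, and without LNCaP95 replicate 1 it did not pass. Each of these fits left 1 library in a line, so no call is drawn from them.

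SYP encodes synaptophysin, a membrane protein of small synaptic-like vesicles (chrX:49044268-49056677, minus strand, 5 exon blocks). It had 45 and 44 reads in LNCaP95 and 42 and 42 reads in LN95(KO). All 4 libraries lay within 3 reads of each other. The level was 2.42 ± 0.0253 CPM (SD, n = 2) in LNCaP95 and 2.34 ± 0.0505 CPM (SD, n = 2) in LN95(KO), and the log2 fold change was -0.05 with an SE of 0.22 (edgeR, adjusted p = 0.861). The 95% interval of the log2 fold change ran from -0.52 to 0.42, which leaves room for a moderate change in either direction. Its sign was not stable, since scaling by library totals gave 0.0049.

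ENO2 encodes gamma enolase, the neuron-specific enolase, a glycolytic enzyme that is also used as a serum marker of neuroendocrine tumours (chr12:7022909-7032861, plus strand, 11 exon blocks). It had 875 and 835 reads in LNCaP95 and 223 and 217 reads in LN95(KO). Both knockout libraries lay far below both parental libraries. The level fell from 46.5 ± 1.29 CPM (SD, n = 2) to 12.2 ± 0.501 CPM (SD, n = 2), with a log2 fold change of -1.92 (SE 0.08, 95% interval -2.10 to -1.75, edgeR adjusted p = 2.37e-12). Across the other normalizations, filters, DESeq2 and the omission of any library, the log2 fold change stayed between -1.96 and -1.87. ENO2 was the only one of the 9 genes that was called.

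The profile of ENO2 over the 4 libraries was matched most closely by 3 genes outside the list, by the smallest Euclidean distance between centred log2 CPM values among the genes tested. COQ10A, which encodes a protein of coenzyme Q function, had 148 and 143 reads in LNCaP95 and 37 and 37 in LN95(KO), at a distance of 0.0427. ROR2, a receptor tyrosine kinase for WNT5A, had 34 and 31 against 7 and 7 reads, at a distance of 0.0542. ENSG00000285254, a gene with no symbol in the tables used here, had 17 and 17 against 3 and 3 reads, at a distance of 0.0630. With 4 libraries in 2 lines, this likeness reflects little more than a similar fold change.

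REST (chr4:57774042-57832974, plus strand, 11 exon blocks) had 1150 and 1236 reads in LNCaP95 and 764 and 842 reads in LN95(KO). The 2 lines did not overlap, and the gap between the lowest parental and the highest knockout library exceeded the difference between libraries of a line. The level was 64.9 ± 3.66 CPM (SD, n = 2) in LNCaP95 and 44.7 ± 2.10 CPM (SD, n = 2) in LN95(KO). REST fell by 0.54 on the log2 scale (SE 0.07, 95% interval -0.68 to -0.40, edgeR adjusted p = 2.37e-06), a change below the 2-fold limit for a call. An adjusted p below 0.05 with a lower level, at any fold, was reached by 30.1% of all genes tested, so a decrease of this kind was common in this comparison. Gene-level counts do not separate full-length REST from the truncated neural isoform.

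SRRM4 (chr12:119419346-119600856, plus strand, 23 exon blocks) had 0 and 3 reads in LNCaP95 and 3 and 0 reads in LN95(KO). The ranges of the 2 lines were the same, and the gene was too low to be tested. Both the repressor REST and the marker ENO2 were therefore lower in LN95(KO), while the regulator SRRM4 was close to zero in both lines.

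Levels were compared between genes per length, as RPKM, which is CPM divided by the exon length in kilobases. In LNCaP95 the order was ENO2 at 10.9 ± 0.300 RPKM, REST at 6.90 ± 0.389, SYP at 0.347 ± 0.00363 and SCG2 at 0.221 ± 0.133 (SD, n = 2 for each). In LN95(KO) REST came first at 4.75 ± 0.224 RPKM, followed by ENO2 at 2.86 ± 0.117, SYP at 0.335 ± 0.00724 and SCG2 at 0.0761 ± 0.0474 (SD, n = 2 for each). ENO2 and REST thus exchanged places between the lines, with no overlap of their libraries in either. SYP and SCG2 lay within 1 SD of SCG2 of each other in LNCaP95 and were further apart in LN95(KO), where the SCG2 libraries were at 0.110 and 0.0425 RPKM. The other 5 genes were at or below 0.0192 RPKM in every library. All 3 tested genes had libraries that did not overlap between the lines, SYP included, but so did 79.8% of all genes tested.

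**Figure D3:**
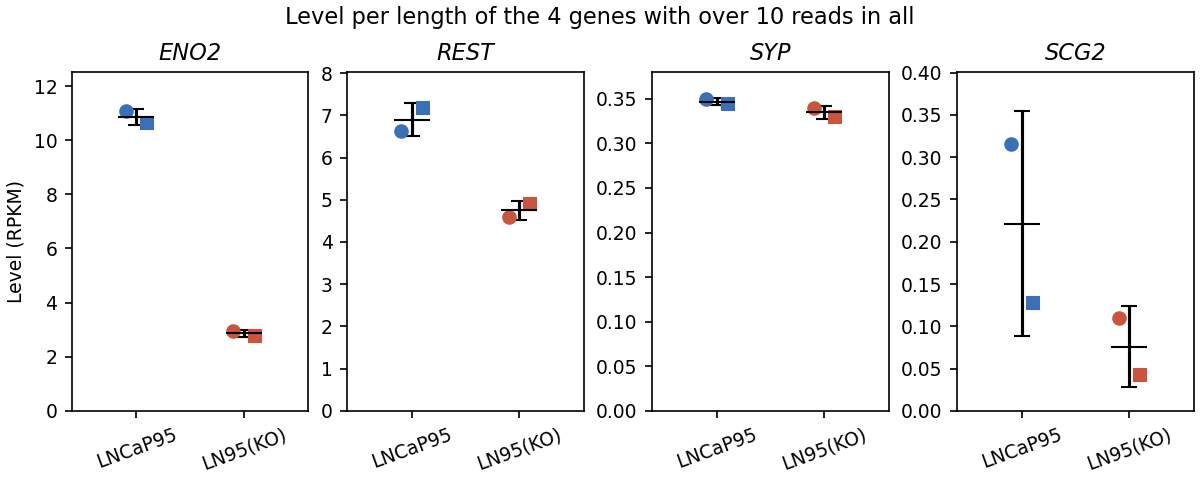
Level per length (RPKM, vertical axis from 0, a separate scale for each gene) of the 4 genes with over 10 reads in all, with 1 point per library and horizontal lines and bars for the mean and SD of 2 libraries. ENO2 dropped from 10.9 to 2.86 RPKM and REST from 6.90 to 4.75 RPKM, SYP was near 0.34 RPKM in both lines, and the SCG2 bars overlap.

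To place the 9 genes among others of the same biology, 8 lists of related genes were examined in the same fit. Of 133 list genes tested, 44 were called, 9 higher and 35 lower in LN95(KO). Some genes passed the filter on low counts only through the line where they were high. Examples are MYCN and NTS through LNCaP95 and SCG5 through LN95(KO). The direction of such calls is built in, so the counts by direction here and below do not describe the whole lists. The background for these and the following counts is the 18.0% of calls transcriptome-wide, split into 8.86% up and 9.13% down in the knockout line. By list, the called share ran from 4% (REST corepressors) to 71.4% (neuroendocrine tumour markers). It was 20% for the neural splicing regulators, close to that background. Whether any share differed from the background was not tested. The median log2 fold change over all genes tested was -0.01, with a middle 50% from -0.37 to 0.37.

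**Figure D4:**
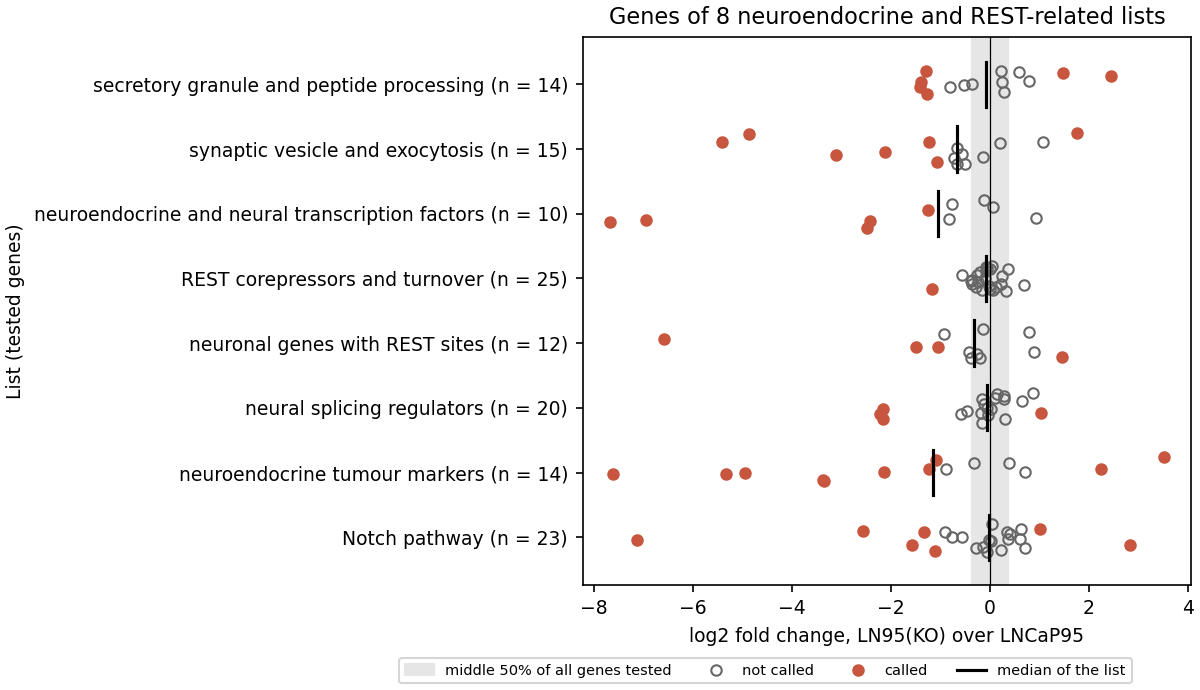
Fitted log2 fold change of each tested gene of the 8 lists (horizontal axis, LN95(KO) over LNCaP95), with called genes filled, list medians as vertical bars and the middle 50% of all genes tested in grey. Medians were lowest for neuroendocrine tumour markers (-1.16), neuroendocrine and neural transcription factors (-1.04) and synaptic vesicle genes (-0.66), and lay within 0.10 of zero for 4 other lists. They cover tested genes only, and some of these passed the filter through LNCaP95 alone, such as MYCN (32 and 19 reads against 0 and 0). For such genes a fall is built in, so neither the medians nor the calls by direction describe the whole lists.

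Among genes of the secretory granule and of peptide processing, 14 of 20 were tested, with 2 calls in the higher and 4 in the lower direction, and the median log2 fold change was -0.07. CPE encodes carboxypeptidase E, which trims prohormones in granules, and fell from 1089 and 1093 reads to 376 and 430 (log2 fold change -1.40, SE 0.07, edgeR adjusted p = 3.15e-11). CADPS2, which primes dense-core vesicles for calcium-triggered release, rose from 452 and 421 reads to 1088 and 1298 (log2 fold change 1.48, SE 0.08, edgeR adjusted p = 5.01e-11). The 2 lines were well separated in both genes, which were expressed in cells whose CHGA, CHGB and SCG3 counts were at or near zero. PCSK1N, VGF and SCG5, granin-like genes of this list, are named after their values were seen. PCSK1N was called lower (2087 and 1994 reads against 850 and 818). VGF was not called (21 and 29 against 32 and 25). SCG5 was called higher (3 and 5 against 18 and 26), and 51.9% of its exon bases are shared with another annotated gene.

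Of 25 synaptic vesicle and exocytosis genes, the group to which SYP belongs by function, 15 were tested, with 1 called higher and 6 lower and a median of -0.66. SV2B and SV2C encode paralogous vesicle glycoproteins and moved in opposite directions. SV2B fell from 243 and 289 reads to 8 and 4 (log2 fold change -5.41, SE 0.25, edgeR adjusted p = 5.88e-12), while SV2C rose from 91 and 103 to 355 and 291 (1.77, SE 0.14, edgeR adjusted p = 7.96e-09). The 95% interval of SYP, a protein of the same vesicles, held neither value.

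Of 26 neuroendocrine and neural transcription factors, the group of INSM1, 10 were tested and 5 were called, all lower, with a median of -1.04. MYCN, named after its values were seen, held 32 and 19 reads in LNCaP95 but none in either knockout library, a level at least 16.6-fold lower when set against a floor of 3 reads over the group. INSM1, by contrast, was already near 0 reads in LNCaP95.

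In the list of REST corepressors and of the proteins that control REST turnover, 25 of 26 genes were tested, 1 was called lower, none was called higher, and the median was -0.07. The call was RCOR2, which encodes a CoREST protein and was named after its values were seen, with 23 and 30 reads in LNCaP95 and 11 and 12 in LN95(KO). It was not called by DESeq2 or without LNCaP95 replicate 2 or either knockout library. The other 24 tested genes of this list all had fitted changes below 2-fold.

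Among 30 neuronal genes known for REST sites, 12 were tested, 1 was called higher and 3 lower, and the median was -0.31. KCNH2, which encodes a voltage-gated potassium channel, fell from 532 and 517 reads to 189 and 176 (log2 fold change -1.49, SE 0.10, edgeR adjusted p = 5.61e-10). L1CAM, a neural cell adhesion molecule, rose from 11 and 16 reads to 38 and 35 (1.46, SE 0.31, edgeR adjusted p = 6.80e-04), and 11.0% of its exon bases are shared with another annotated gene. Without LNCaP95 replicate 2, the calls in this list dropped to 2. RE1-like sites were found for 13 of the 30 genes (43.3%), and neither KCNH2 nor L1CAM was among them.

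Across all protein-coding genes, the fold changes were set beside the RE1-like sites. The 258 tested genes with an RE1-like site had a median log2 fold change of -0.04, and 61 of them (23.6%) were called, 30 higher and 31 lower. The 12326 tested genes without a site had a median of -0.00, and 2080 of them (16.9%) were called, 1047 higher and 1033 lower. Calls were about evenly divided between the directions in both sets. Only 258 of the 505 genes with a site had enough reads to be tested, so silent genes are not covered. Whether the lower REST level played a part was not tested. Of the 4 lineage genes with a site, only SYP had enough reads to be tested.

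Of 28 neural splicing regulators, the group of SRRM4, 20 were tested, 1 was called higher and 3 lower, and the median was -0.05. MBNL2, a muscleblind splicing factor, fell from 2361 and 2322 reads to 500 and 488 (log2 fold change -2.21, SE 0.06, edgeR adjusted p = 5.94e-15). ESRP2, an epithelial splicing regulator, rose from 603 and 570 reads to 1160 and 1194 (1.04, SE 0.07, edgeR adjusted p = 4.05e-10), close to the 2-fold limit.

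Of 24 further neuroendocrine tumour markers, 23 were found, 14 were tested and 10 were called, 2 higher and 8 lower, with a median of -1.16. DDC encodes aromatic L-amino acid decarboxylase, which makes dopamine and serotonin, and fell from 9861 and 9323 reads to 308 and 299 (log2 fold change -4.95, SE 0.06, edgeR adjusted p = 3.73e-19). STMN1, a microtubule-destabilizing protein that is also linked to proliferation, rose from 539 and 537 reads to 2302 and 2722 (2.25, SE 0.07, edgeR adjusted p = 3.33e-14). NTS, encoding the peptide neurotensin and named after its values were seen, held 26 and 23 reads in LNCaP95 and none in the knockout libraries, at least 16.0-fold lower against the same floor. A neuron and glia list moved the other way in its summed level, from 86.5 to 89.4 CPM in LNCaP95 to 150.03 to 153 CPM in LN95(KO), and its part in these results was not tested. In that list MAP2, a neuronal microtubule protein, rose from 41 and 60 reads to 702 and 768, MBP went from 1512 and 1538 to 1984 and 1950 without a call, OLIG2 fell from 26 and 31 to 10 and 12, and GAD2 was at 0.

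Notch signalling represses neuroendocrine differentiation in several epithelia, and 23 of 28 genes of the pathway were tested. Of these, 2 were called higher and 5 lower, with a median of -0.01. DTX3, a Deltex family ubiquitin ligase, fell from 49 and 43 reads to 8 and 7 (log2 fold change -2.56, SE 0.33, edgeR adjusted p = 3.70e-06). No gene called higher in this list reached a mean count of 20, the minimum set for naming.

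**Figure D5:**
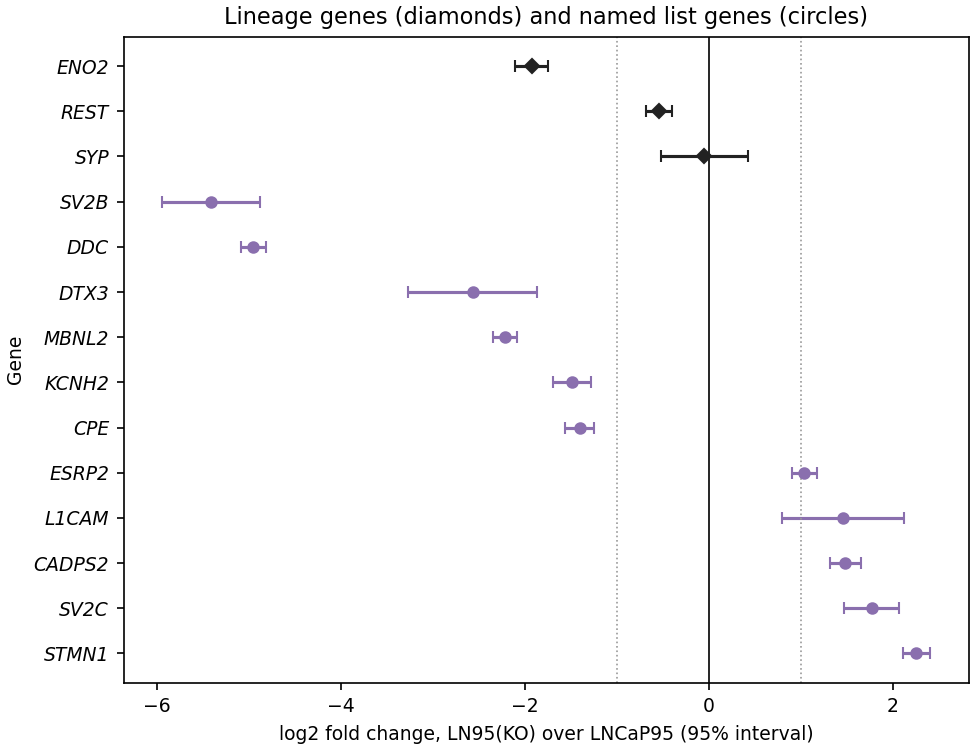
Fitted log2 fold change (horizontal axis, LN95(KO) over LNCaP95) with its 95% interval for the tested lineage genes (diamonds) and for list genes named by size of change (circles), with dotted lines at a 2-fold change. ENO2 (-1.92) lay beyond the 2-fold line with its whole interval, REST (-0.54) lay between the lines, the interval of SYP spanned 0, and the list genes shown reached from SV2B (-5.41) to STMN1 (2.25).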

How the data were processed

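Total RNA was poly(A)-selected and sequenced on the DNBseq platform. Per the labels and the study's methods, the counts deposited by the authors are raw reads per gene, made with HTSeq and GENCODE 29 from HISAT2 2.1.0 alignments to hg19, and the file names give unstranded counting. The series table equalled the single-library files in every cell (0 differences). The 5 summary lines of each file were left out. Symbols were matched for 59858 of 60880 IDs.

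Counts were tested with edgeR 4.0.16 (R 4.3.3) by the quasi-likelihood test with TMM factors, the default filterByExpr and Benjamini-Hochberg adjustment over all genes tested, with no block. DESeq2 1.42.0 was the alternative test. The calculation was tested on simulated data. CPM and RPKM were computed from the counts with TMM-scaled totals and the merged exon lengths of GENCODE 44 mapped to GRCh37. Positions are from that annotation. Genes not tested have pooled count ratios with exact binomial 95% intervals (scipy 1.17.1). Libraries of a line differed beyond counting noise (chi-square per degree of freedom 2.31 and 3.31). With 2 against 2 libraries an exact two-sided permutation test cannot go below p = 0.333, so none was used for single genes. In each list, the called genes with the largest rise and fall among those with a mean count of at least 20 are named. A gene that this rule gives is not reported here. The genes and lists were chosen with earlier results of these data known. The alternatives were other normalizations, filters, tests and thresholds, and leaving out each library.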

Additional observations from a re-analysis of the deposited data

Results flagged for a closer look

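Among the summary lines of the count files, which entered no comparison, 8.05% and 7.707% of reads were not aligned in the LN95(KO) libraries compared with 3.85% and 3.96% in the LNCaP95 libraries, a difference that no result above uses.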

How the results depend on the processing

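ENO2 kept its call and REST its lower level under every alternative run. For 19 named genes, alternatives other than glmTreat and adjusted p alone gave 189 values. Of these, 187 kept their direction and side of the threshold. Genes named after their values were seen, such as RCOR2, MYCN and NTS, are not among the 19. SYP turned to 0.0049 with library totals, and ESRP2 dropped to 0.999 with upper quartile factors. With glmTreat against a 2-fold change, 1687 genes were called in all, 0 of the REST corepressor list, 2 of the neuronal REST-site list and 4 of the Notch list. In the neuronal REST-site and splicing lists 0 genes were then called higher, so L1CAM and ESRP2 lost their calls. With adjusted p alone the counts were 9349 of all genes, 2 of the 9 lineage genes (REST was added), 102 of the list genes, 12 granule, 13 synaptic vesicle, 8 transcription factor, 16 REST corepressor, 10 neuronal REST-site, 14 splicing and 17 Notch genes. DESeq2 called 0 REST corepressor genes, where edgeR called 1 by the same rule. With a mean CPM of at least 1, 5 tumour markers and 4 Notch genes were called. Leaving out 1 library at a time left 1 library in a line, and SCG2 then entered the test except without LNCaP95 replicate 1. No other scaling moved the median of all genes by over 0.06. No paired analysis was possible because the 2 lines share no replicate numbers. At this depth and with 2 libraries per line, changes in INSM1, CHGA, CHGB, SCG3 and SRRM4 below a few reads could not be seen.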
